A study of Mus musculus with 11 samples.

Results

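The sites described here are places in the genome of a mouse ependymoma line where an HA-tagged fusion protein, Cbp and p300 were all found by CUT&RUN. They were chosen by 3 overlaps: a peak of the HA list of line M00001 on chromosomes 1 to 19 or X was kept when it shared at least 1 bp with a Cbp peak and with a p300 peak of the same line and with no IgG control peak of either line. This left 412 of the 9365 HA peaks of M00001, of which 8504 lay on those chromosomes and 7462 were free of IgG. Of the other IgG-free HA peaks, 5916 overlapped no coactivator peak, 838 overlapped p300 but not Cbp (called p300 only) and 296 overlapped Cbp but not p300 (called Cbp only).

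In CUT&RUN, a nuclease is tethered by an antibody to chromatin of permeabilised cells and the fragments it releases are sequenced. Both lines, M00001 and M00002, are tumour-derived mouse lines whose sample names carry the fusion name Fus1, taken here as the ZFTA-RELA fusion of the series title, and no treatment was applied to either. Each line carries 1 mouse number in the labels, each target was profiled in 1 library, and HA and IgG were profiled in both lines. Cbp, p300 and 2 forms of Rpb1, the catalytic subunit of RNA polymerase II, written S5 and S2 (taken here as phosphorylation at serine positions of its tail), came from M00001, and p65 and H3K27ac (antibodies ac4729 and ac647) came from M00002. A code shared by the sample names of Cbp, p300, S5 and S2 is missing from the names of the other 2 libraries of M00001, so a shared preparation of these 4 libraries cannot be told apart from shared binding. No wild-type, fusion-free or untagged cells were analysed here.

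ZFTA-RELA joins a zinc finger protein to most of RELA, the p65 subunit of the transcription factor NF-kappaB, and is the defining lesion of a form of supratentorial ependymoma. Cbp and p300 are closely related acetyltransferases that transcription factors recruit to enhancers and promoters, where they acetylate histones, including H3K27. Polymerase marked at S5 is typical of gene starts and polymerase marked at S2 of elongation, and an antibody to p65 can also bind the RELA portion of the fusion.

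The following stretches are shown because they hold the HA summits of the strongest sites at gene starts. They are the 5 promoters with the highest mean rank of HA, Cbp and p300 fold enrichment among those with a 150-base stretch, 75 bases to each side of the HA summit, inside the 250 bases before a RefSeq start site (GRCm38.p6, the assembly also called mm10). Capitals mark GGGCGG, the core of an Sp/KLF site, and GGGGCC, searched as the PLAGL core, on either strand.
Rrp9, chr9:106477096-106477245, plus strand: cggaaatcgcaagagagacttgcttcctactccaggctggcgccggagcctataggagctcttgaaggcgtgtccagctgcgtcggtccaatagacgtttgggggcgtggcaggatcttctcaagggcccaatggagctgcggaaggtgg
Aldh6a1, chr12:84451092-84451241, minus strand: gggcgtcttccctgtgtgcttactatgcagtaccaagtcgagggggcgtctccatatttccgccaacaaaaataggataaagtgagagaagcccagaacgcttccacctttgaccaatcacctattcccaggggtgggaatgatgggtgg
Sertad2, chr11:20631782-20631931, plus strand: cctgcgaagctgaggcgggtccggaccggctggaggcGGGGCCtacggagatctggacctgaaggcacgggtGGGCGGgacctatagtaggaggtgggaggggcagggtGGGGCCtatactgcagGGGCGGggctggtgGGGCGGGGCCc
Gamt, chr10:80261113-80261262, minus strand: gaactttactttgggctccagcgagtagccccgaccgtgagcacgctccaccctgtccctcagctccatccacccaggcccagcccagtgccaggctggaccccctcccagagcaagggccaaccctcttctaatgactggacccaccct
Vcl, chr14:20929227-20929376, plus strand: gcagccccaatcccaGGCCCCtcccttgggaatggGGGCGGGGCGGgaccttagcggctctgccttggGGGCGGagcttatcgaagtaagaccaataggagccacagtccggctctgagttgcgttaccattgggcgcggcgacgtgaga
Of these 5 stretches, those of Sertad2 and Vcl held the marked words and those of Rrp9, Aldh6a1 and Gamt did not. Over whole promoter windows, from 250 bases before to 50 bases after a start site, the words were frequent: 107 of the 412 sites overlapped such a window, and these sites touched 139 windows of 124 genes. GGGCGG was present in 80.6% of the 139 windows and in 35.9% of all 32585 windows, and GGGGCC in 63.3% against 25.1%. The windows at the sites were also richer in G and C, with a median of 65.3% against 53% over all windows. Promoter windows at HA peaks with p300 only had almost the same composition, 64.7% G and C, with GGGCGG in 80.9% and GGGGCC in 57.8%. In windows with H3K27ac by both antibodies and no HA peak of either line, the shares were 52% and 31.3%, with 57.7% G and C. Ranking all 31041 words of 8 bases placed gccccgcc first by the difference between those 2 sets, at 46.8% of the windows of the sites and 16.2% of the acetylated windows without HA.

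The NF-kappaB consensus, searched by name, matched 13.7% of the windows at the sites and 8.51% of all windows. Other promoters bound by the fusion had like shares: 12% with p300 only, 9.52% with Cbp only, 15.5% without a coactivator peak and 13.1% with HA of M00002 only. The matching windows belonged to 17 sites, among them those of Rras, Inpp5a, Sirt2, Vcl, Hspd1 and Hspe1. In 2 of the stretches around an HA summit the match itself lay inside the stretch, at Ube2d3, which encodes a ubiquitin-conjugating enzyme that acts on the NF-kappaB inhibitor, and at Ddx59, which encodes an RNA helicase. The Ube2d3 stretch is shown with that match in capitals, 146 bases being the distance from the HA summit to the start site.
Ube2d3, chr3:135438011-135438160, plus strand: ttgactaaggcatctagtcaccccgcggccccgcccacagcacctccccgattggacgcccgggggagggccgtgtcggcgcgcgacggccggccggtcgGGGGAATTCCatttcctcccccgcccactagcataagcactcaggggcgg
Of the other words searched, CCAAT was present in 57.6% of the windows at the sites against 37.6% of all windows, 60.1% with p300 only and 57.1% with Cbp only, and the CRE TGACGTCA in 4.32% against 1.8%. The AP-1 word TGANTCA was found in 5.04% against 7.85%, CCGGAA (Ets) in 20.1% against 15%, CACGTG (E-box) in 11.5% against 7.2%, and GGAATG (TEAD) in 14.4% against 14.6%. CCGGAA was more frequent in like promoters, at 26.7% with p300 only, 28.6% with Cbp only and 28.4% of acetylated windows without HA. In the same order, CACGTG was at 8.91%, 5.95% and 10.4%. The CRE, found in 6 windows of the sites, was at 1.78%, 0% and 3.62%. Divergent genes share windows, so neighbouring windows are not independent, and a match is a description of the letters. The 305 sites outside promoter windows were not analysed here for sequence.

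Among the 412 sites, both coactivators and the fusion had their highest folds at a site inside the Capzb gene, which encodes the beta subunit of an actin capping protein (chr4:139206820-139207032). Its fold enrichment, the authors' value for the peak over its local background, was 43.2 for HA, 25.1 for Cbp and 21.9 for p300 in M00001, and 67.9 for HA and 58.6 for p65 in M00002. H3K27ac peaks overlapped it with folds of 5.2 (ac4729) and 8.62 (ac647). It overlapped no S5 or S2 peak, and the nearest IgG peak, of M00002, began 2098 bp away. Over the 412 sites the HA fold had a lowest value of 2.44, a median of 5.81 and a highest of 43.2. The Cbp fold ranged from 1.95 over a median of 4.12 to 25.1, and the p300 fold from 2.22 over a median of 4.42 to 21.9. These 3 quantities chose the sites and are given as a description.

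After Capzb, the sites with the highest mean rank of the 3 folds were a mixed group of promoters and distal positions. A site 96315 bp from the nearest gene, Eef2kmt (a lysine methyltransferase of elongation factor 2), had HA 18, Cbp 8.21 and p300 6.54, with an HA fold of 21.3 in M00002 and neither S5 nor S2. The site across the shared start of Parp3, an ADP-ribosyltransferase of DNA break repair, and Rrp9, a protein of pre-ribosomal RNA processing, was the widest of all sites at 1123 bp. It had HA 13.4, Cbp 7.7 and p300 6.97, and peaks in all 6 lists that the selection did not use. The site beside Brpf1, the scaffold of MOZ-type histone acetyltransferase complexes, had HA 17.6, Cbp 5.77, p300 7.88, S5 8.52 and S2 8.22. The site inside Stx8, a syntaxin of endosomal fusion, had HA 11.9, Cbp 6.18 and p300 8, with S2 at 3.42 and no S5.

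Further sites of this group lay at genes of varied function. They were at Bcar1, an adhesion adaptor (HA 10), Rras, a small GTPase (HA 11.1), Stk10, a kinase (HA 11.2), Inpp5a, an inositol phosphatase (HA 9.47), and Gng7, a G protein subunit (HA 10.2). Others were at Ak5, an adenylate kinase of brain (HA 12.2), Aldh6a1, an enzyme of valine breakdown that lies beside Lin52 (HA 9.87), Sertad2, a transcriptional coregulator (HA 10.1), and Gstp2, a glutathione transferase (HA 9.47). The sites named for Hmgb1, a chromatin protein (HA 15.6), and Resf1 (HA 10.8) lay 25973 and 47927 bp from those genes. Of the 20 sites with the highest mean rank, 3 had no HA peak in M00002, and those 3 sat at Rps29, at Nemf and inside Adgrf2, near an end of Cd2ap.

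The Rps29 and Nemf sites lie on Rn7s1 and Rn7s2, copies of the 7SL RNA of the signal recognition particle. The Rps29 site (chr12:69159304-69159670) had HA 20.1, Cbp 9.53, p300 6.61, S5 9.6 and S2 9.16. The Nemf site (chr12:69361185-69361534) had HA 10.2, Cbp 5.83, p300 5.96, S5 7.78 and S2 7.44. In M00002 both were without an HA, p65 or ac4729 peak, yet the ac647 fold was 29.2 at the first, the highest ac647 value of all 412 sites, and 16.2 at the second. Rn7s1 and Rn7s2 are near-identical copies, so the assignment of reads between them is uncertain. The Adgrf2 and Cd2ap site showed the same set of lists, with HA 7.46, Cbp 10, p300 9.3, S5 7.35, S2 7.62 and ac647 7.7 and no HA, p65 or ac4729 in M00002.

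**Figure D1:**
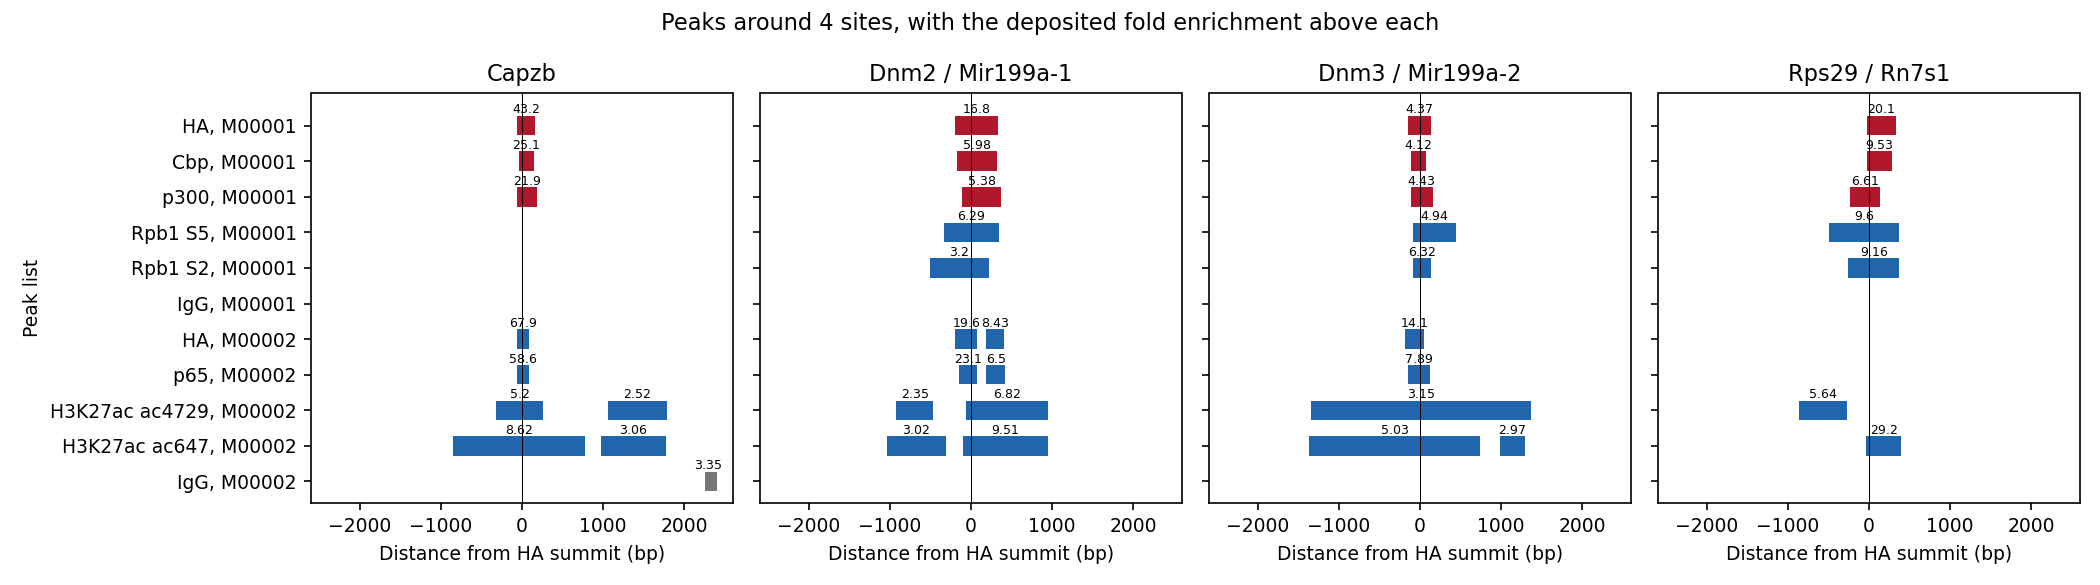
Peaks of all 11 lists as bars around the HA summit (horizontal axis, bp) at 4 sites, with the deposited fold enrichment printed above each bar. Red marks the lists that chose the sites, grey IgG and blue the other lists; at Rps29 the rows of HA and p65 of M00002 are empty while ac647 stands at 29.2.

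Both loci of one microRNA held a site, which was noticed after the values were seen. Mir199a-1 lies antisense within Dnm2, a dynamin of endocytosis, and Mir199a-2 within the Dnm3 locus. Both encode the same mature forms (RefSeq, GRCm38.p6), shown with the seed, bases 2 to 8, in capitals.
miR-199a-5p: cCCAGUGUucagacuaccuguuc
miR-199a-3p: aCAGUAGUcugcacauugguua
The site at Mir199a-1 (chr9:21496901-21497432) was 336 bp from the hairpin and had HA 16.8, Cbp 5.98 and p300 5.38. The site at Mir199a-2 (chr1:162217366-162217655) was 158 bp away and had HA 4.37, Cbp 4.12 and p300 4.43. In M00002 the HA folds were 19.6 and 14.1 and the p65 folds 23.1 and 7.89, so both were occupied in both lines. Peaks of S5 (6.29 and 4.94), S2 (3.2 and 6.32) and both H3K27ac antibodies overlapped each. The peak map of the 4 sites shows the acetylated stretch at Mir199a-2 running from -1346 to 1374 bp of the HA summit in the ac4729 list.

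Sites with and without HA of M00002 differed in most other lists, as did the other HA peaks of M00001. That HA list overlapped 297 of the 412 sites, 72.1% (95% exact binomial interval 67.5 to 76.4), where 56.8% of all 7462 IgG-free HA peaks of M00001 overlapped it. In the 297 shared sites p65 was present at 91.2%, ac4729 at 83.8% and ac647 at 69.4%. In the 115 sites without it p65 was present at 5.22%, ac4729 at 16.5% and ac647 at 34.8%. The same split of the HA peaks with p300 only gave p65 at 89.4% and 5.84% and ac4729 at 83.3% and 27%, and that of peaks with Cbp only gave p65 at 78.7% and 3.15% and ac4729 at 74.6% and 11%. At the sites, the polymerase lists of M00001 differed less between the groups, with S5 at 78.8% and 67.8% and S2 at 87.2% and 77.4%. With p300 only, S5 was at 63.9% and 37.2% and S2 at 81.6% and 47.4%. With Cbp only, S5 was at 48.5% and 35.4% and S2 at 74% and 44.1%. The HA fold in M00001 had a median of 7.64 in the shared sites and 3.98 in the others, while the Cbp medians were 4.12 and 4.25 and the p300 medians 4.48 and 4.12.

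The sites without HA of M00002 also lay elsewhere. A protein-coding gene had an end within 1 kb at 7.83% of them and at 37% of the shared sites, and a promoter window was overlapped by 3 of 115 against 104 of 297. They lay nearer to IgG peaks, with a median distance of 5771 bp against 102745 bp, and 27% had an IgG peak within 1 kb against 4.04%. Their part in the difference between the groups was not tested. A −log10 q of at least 5 for HA, the authors' measure of peak confidence, was reached by 11.3% of the sites without HA of M00002 and by 71% of the shared sites. HA peaks with p300 only or Cbp only split the same way. With p300 only, a gene end lay within 1 kb at 19.7% without and 46.8% with HA of M00002. With Cbp only the shares were 6.3% and 39.6%. In the same order, IgG lay within 1 kb at 9.49% and 1.28% with p300 only and 15.7% and 3.55% with Cbp only. The q threshold was reached by 3.65% and 63.8% with p300 only and by 7.87% and 58% with Cbp only. This split was made after the values were seen, and no test was run on it.

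**Figure D2:**
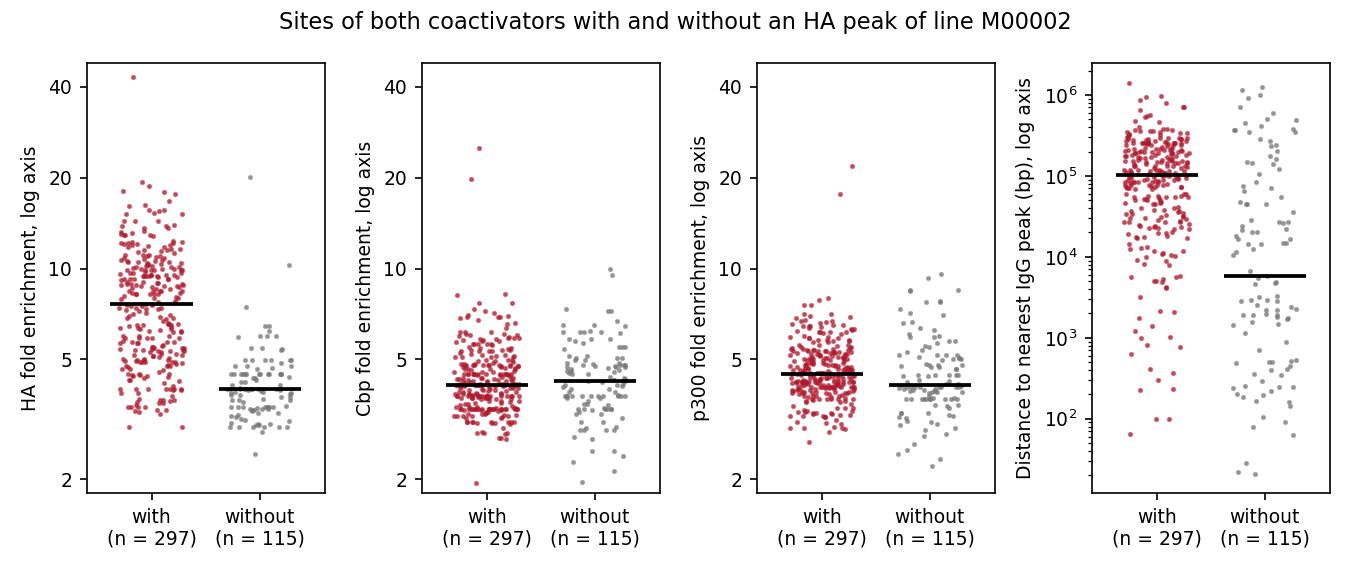
Fold enrichment of HA, Cbp and p300 in M00001 and the distance to the nearest IgG peak in bp (vertical log axes) at each site, split by whether HA of M00002 overlapped it; points are sites and lines are medians. The HA medians are 7.64 with and 3.98 without, the Cbp medians 4.12 and 4.25, and the IgG distances 102745 and 5771 bp.

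The most frequent combination of the other lists was all 6 together, at 129 of the 412 sites, 31.3%. It was found at 22% of the HA peaks with p300 only, 11.1% with Cbp only and 3.52% of those without a coactivator peak, a difference that was not tested. Next were 42 sites with every list but ac647, and 30 sites that had S5 and S2 of M00001 and nothing from M00002. A further 19 had ac647 with S5 and S2 but no HA, p65 or ac4729, as at the 7SL copies. None of the 6 lists overlapped 10 of the sites, 2.43%. That share was 4.89% with p300 only, 14.2% with Cbp only and 37.1% without a coactivator peak, which was not tested. These 10 sites had HA folds from 2.98 to 4.48, and the nearest IgG peak lay between 354 and 449562 bp away. The genes they were named for were Aga, Obox7, Snrpn, Cog6, Ncr1, Zfp637, Mndal, Mrgpra3, Zfp991 and Gm15319, of which only Zfp991 has an end within 5 kb. The site named for Snrpn lies in the Snord116 cluster of small nucleolar RNA genes, a repeated family in which reads may be shared between copies.

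**Figure D3:**
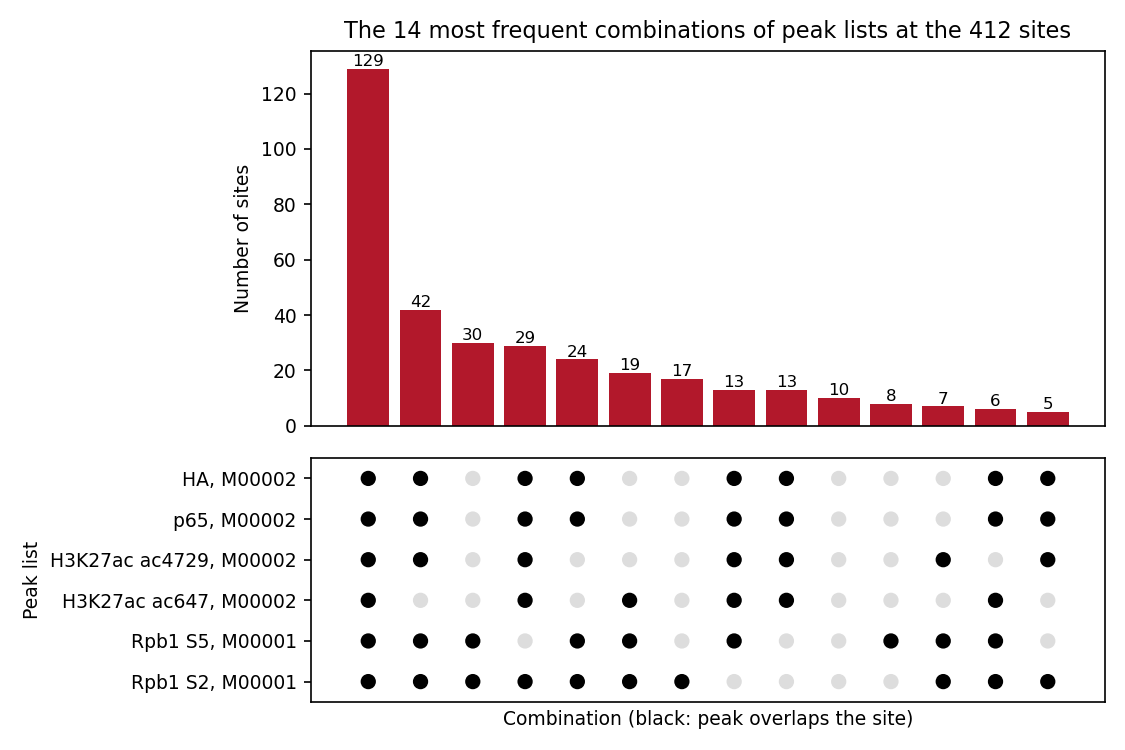
Number of sites (vertical axis of the upper panel) with each of the 14 most frequent combinations of 6 peak lists; black dots in the lower panel mark the lists present. The first column is the 129 sites with all 6 lists, and the 10 sites with none stand in the tenth column.

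Against the 2 most like classes of HA peaks, the sites more often overlapped polymerase peaks. S5 and S2 share the sample code of Cbp and p300, so a shared preparation cannot be told apart from shared binding. The IgG filter removed 61.1% of HA peaks with both coactivators, 25.8% with Cbp only and 8.62% with p300 only. The median p300 −log10 q was 3.74 at the sites and 2.27 with p300 only. The part of these differences in the polymerase shares was not tested. S5 overlapped 75.7% of the sites, 59.5% of the HA peaks with p300 only and 42.9% of those with Cbp only, beside 24.5% of all IgG-free HA peaks. The odds ratio was 2.12 (95% interval 1.62 to 2.79, adjusted p = 5.86e-08 by Fisher's exact test) against p300 only and 4.14 (2.97 to 5.81, adjusted p = 1.54e-17, Fisher's exact test) against Cbp only. S2 overlapped 84.5% of the sites, 76% with p300 only and 61.1% with Cbp only, beside 39.2% of all. Its odds ratios were 1.72 (1.25 to 2.38, adjusted p = 0.000744, Fisher's exact test) and 3.45 (2.39 to 5.01, adjusted p = 1.81e-11, Fisher's exact test). Tests were two-sided, and they compare peaks within single libraries, since peaks are not replicates. Benjamini-Hochberg adjustment was over the 14 main tests and, in each alternative, over the tests of that alternative, which were sometimes fewer. The S5 differences passed the threshold in every alternative tried. The S2 difference from p300 only did not pass when S2 peaks overlapping IgG were left out (odds ratio 1.24, adjusted p = 0.168, Fisher's exact test), and over all its alternatives the odds ratio ran from 1.23 to 2.3 and the adjusted p by exact tests from 5.86e-07 to 0.234.

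Occupancy in the other line set the sites between the 2 classes. HA of M00002 was found at 72.1% of the sites, at 83.7% with p300 only (odds ratio 0.505, adjusted p = 6.91e-06, Fisher's exact test) and at 57.1% with Cbp only (odds ratio 1.94, adjusted p = 6.32e-05, Fisher's exact test). Within 5 strata of HA fold the second difference did not pass the threshold (odds ratio 1.39, adjusted p = 0.131, exact conditional test), and over all alternatives for it the adjusted p by exact tests ran from 2.78e-06 to 0.275. Peaks of p65 overlapped 67.2% of the sites, 75.8% with p300 only (odds ratio 0.656, adjusted p = 0.00211, Fisher's exact test) and 46.3% with Cbp only (odds ratio 2.38, adjusted p = 1.24e-07, Fisher's exact test), beside 48.4% of all. The p65 difference from p300 only did not pass with p65 peaks at a −log10 q of at least 5 (odds ratio 0.898, adjusted p = 0.394, Fisher's exact test) or without HA peaks within 1 kb of IgG (odds ratio 0.828, adjusted p = 0.229, Fisher's exact test), in a range of 6.85e-06 to 0.505 over its alternatives by exact tests. The selection removed IgG peaks of M00002, so the lists of that line are not wholly apart from it.

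H3K27ac differed by antibody. The ac4729 list overlapped 65% of the sites against 74.1% with p300 only (odds ratio 0.651, adjusted p = 0.00143, Fisher's exact test) and 47.3% with Cbp only (odds ratio 2.07, adjusted p = 6.99e-06, Fisher's exact test), beside 49.7% of all. Among HA peaks with a −log10 q of at least 5 neither difference passed (odds ratios 0.685 and 1.28, adjusted p = 0.142 and 0.453, Fisher's exact test). That from p300 only also did not pass with 50% overlap (0.796) or with ac4729 peaks at a −log10 q of at least 5 (0.838). The ac647 list overlapped 59.7% against 54.9% with p300 only, a difference of 4.82 percentage points that did not pass the threshold (odds ratio 1.22, 95% interval 0.952 to 1.56, adjusted p = 0.123, Fisher's exact test). Against the 39.5% with Cbp only it did (odds ratio 2.26, adjusted p = 3.74e-07, Fisher's exact test), beside 35.4% of all. Among the HA peaks that also had HA of M00002, the p65 and ac4729 differences from p300 only did not pass the threshold. There p65 overlapped 91.2% and 89.4% (odds ratio 1.23, adjusted p = 0.505, Fisher's exact test). The ac4729 list overlapped 83.8% and 83.3% (odds ratio 1.04, adjusted p = 0.926, Fisher's exact test). In those peaks ac647 was at 69.4% against 60.6% (odds ratio 1.47, adjusted p = 0.0166, Fisher's exact test), the lowest adjusted p of its alternatives, which reached 0.747.

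The sites were less often at gene ends than HA peaks with p300 only. An end of a protein-coding gene lay within 1 kb of 28.9% of the sites and of 42.4% with p300 only (odds ratio 0.553, 95% interval 0.425 to 0.717, adjusted p = 7.4e-06, Fisher's exact test), beside 26.2% of all. The 25.3% with Cbp only did not differ past the threshold (odds ratio 1.2, 95% interval 0.843 to 1.7, adjusted p = 0.307, Fisher's exact test). Of the 412 sites, 213 overlapped a protein-coding gene, 164 had a gene end within 5 kb and 248 did not. Exon and intron positions were not analysed here.

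**Figure D4:**
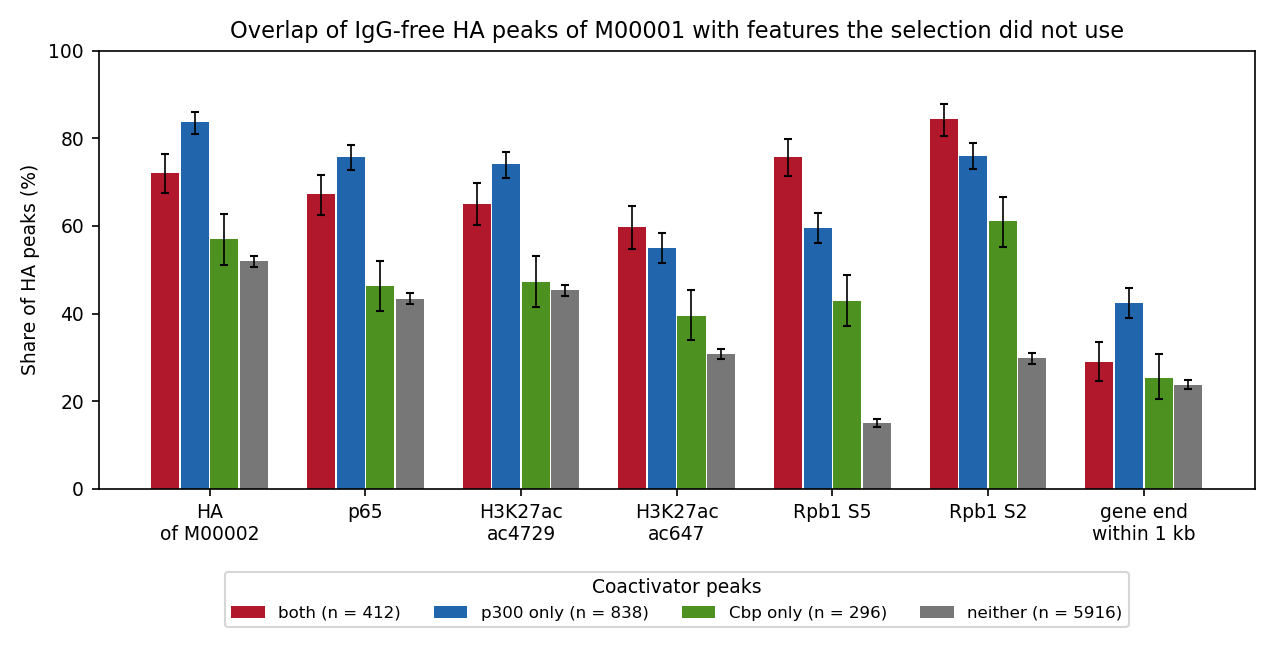
Share of IgG-free HA peaks of M00001 in percent (vertical axis) that overlap each list, or have a gene end within 1 kb, by coactivator class; bars are shares and whiskers 95% exact binomial intervals, which cover counting error only. The sites with both coactivators are highest for S5 (75.7%) and S2 (84.5%), and peaks with p300 only are highest for HA of M00002 (83.7%).

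The highest S5 folds at the sites were at positions of quite different kinds. The first was a site 10230 bp from Il23r, a cytokine receptor gene (S5 16.8, S2 24.7, Cbp 19.7, p300 17.7), whose HA fold was only 3.98 in M00001 and 4.49 in M00002. It had no p65 or ac4729 peak and an ac647 fold of 6.16. The others were H2aj beside H4f16, both histone genes (S5 10.9), Sp1, a GC-box transcription factor (10.2), Aldh6a1 (10.1), Tbl2 (10) and Nmt2, an N-myristoyltransferase (9.8). The Sp1 site had no HA or p65 peak in M00002, and an IgG peak lay 1699 bp away.

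The sites with the broadest acetylation had the fusion in both lines, as did most acetylated sites. HA of M00002 was at 72.1% of all 412 sites and at 193 of the 203 sites with both H3K27ac antibodies. The 6 sites with the most bases of overlapping H3K27ac peaks, as the mean of both antibodies, were at Actn1, an actin cross-linker, Dnm3, Cald1, an actin-binding regulator of contraction, Rarg, a retinoic acid receptor, Bmp7, a secreted signal (139364 bp from the gene), and Btbd19 with Plk3. The HA folds in M00001 were 8.52, 4.37, 9.72, 7.9, 18.1 and 5.64, and all 6 had HA (14 to 21.9) and p65 (7.89 to 20.3) in M00002. The Rarg site was the only one of them without S5.

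Among overlapping peaks, HA summits of M00002 lay nearer to the HA summits of M00001 than Cbp or p300 summits did, in lists of unlike peak width. Of the 297 sites with HA of M00002, 82.8% had its summit within 100 bp of the HA summit of M00001, and for p65 the share was 83.4% of 277. For Cbp it was 62.6% and for p300 53.4% of 412. For S5 it was 54.8% of 312 and for S2 52% of 348. The 2 H3K27ac lists had their nearest summit within 100 bp at 23.9% of 268 and 24.8% of 246 sites, with medians of 208 and 210 bp. With and without HA of M00002, the ac647 medians were 224 bp (206 sites) and 57 bp (40 sites). Those of ac4729 were 206 bp (249 sites) and 209 bp (19 sites). Only peaks that overlap a site were measured, so the width of the peaks in a list bounds its distances. Over the whole lists the median width was 115 bp for HA of M00002 and 118 bp for p65. It was 263 bp for Cbp, 291 bp for p300, 290 bp for S5, 349 bp for S2 and 451 bp for ac4729. The part of width in these distances was not tested, so no closer agreement of the fusion is concluded.

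**Figure D5:**
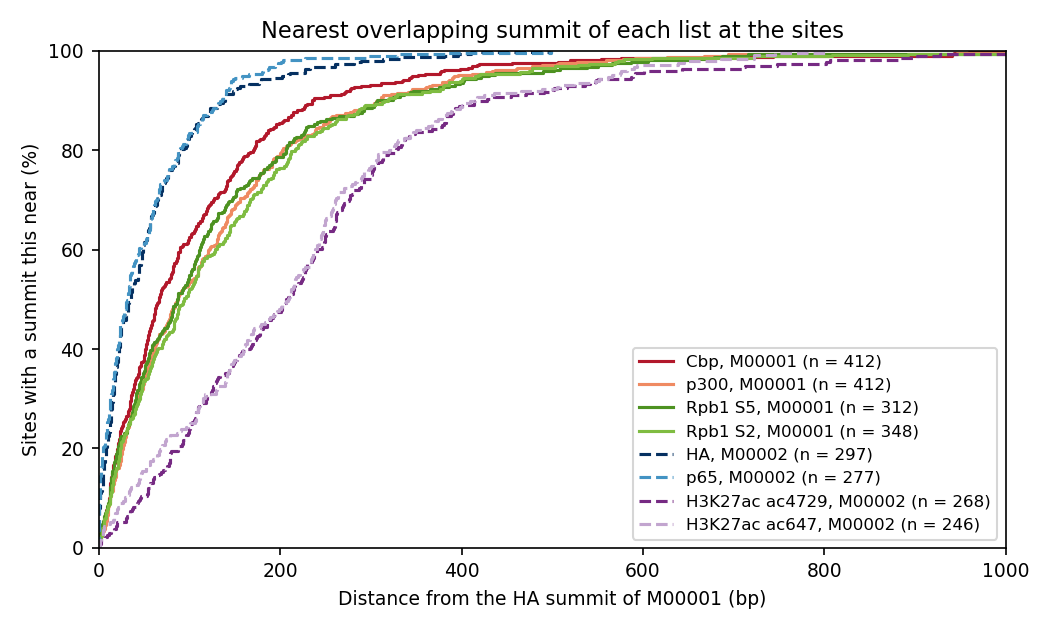
Cumulative share of sites in percent (vertical axis) whose nearest summit of each list lies within a distance of the HA summit of M00001 (horizontal axis, bp); solid lines are lists of M00001 and dashed lines of M00002. HA and p65 of M00002 reach 82.8% and 83.4% at 100 bp, and the H3K27ac lists 23.9% and 24.8%.

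Across the 412 sites the folds of Cbp and p300 were related more closely to each other (Spearman 0.41) than either to HA (0.22 for Cbp and 0.21 for p300). In the 115 sites without HA of M00002 the Cbp and p300 folds had a Spearman value of 0.61, against 0.32 in the 297 shared sites. The values for HA with Cbp and HA with p300 were also higher there, at 0.40 and 0.40 against 0.27 and 0.15. These values describe single libraries of 1 line, and the points share the library, its depth and the local background.

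The 412 sites lay within 5 kb of an end of 220 of 21631 protein-coding genes, 1.02%, and of 11 of 265 listed genes, 4.15%. These lists were written with earlier results of these data known. Listed genes also more often had an IgG-free HA peak of any class (33.6% against 16% of all genes). The same held for H3K27ac by both antibodies (41.9% against 19.8%). From 24 AP-1 and immediate early genes there were 3: Egr1, a zinc finger factor induced by growth signals (HA 10.2, Cbp 3.7, p300 6.29), Dusp1, a phosphatase of MAP kinases (HA 4.9, Cbp 2.85, p300 5.36), and Fosl1, an AP-1 subunit (HA 3.66, Cbp 3.39, p300 4.26). From 20 coactivator and chromatin genes there were Brpf1 and Brd2, a bromodomain reader of acetylated histones (HA 5, Cbp 3.46, p300 3.55). From 18 radial glia genes there were Vim, an intermediate filament gene (HA 7.21, Cbp 5.21, p300 5.48), and Id3, an inhibitor of differentiation factors (HA 6.52, Cbp 4.08, p300 5.46).

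An IgG-free HA peak of any class lay within 5 kb of 18 of 28 NF-kappaB target genes and of 3453 of all 21631 genes, 16%. A site of both coactivators lay at 1 of the 28, Nfkbib, an inhibitor of NF-kappaB (HA 9.41, Cbp 3.4, p300 4.18, p65 16.3). Ccnd3, a G1 cyclin, was the 1 of 18 cell cycle genes (HA 9.21, Cbp 4.98, p300 4.03), and Rps29 the 1 of 26 ribosomal protein genes. None of 21 ependymoma genes, 20 Notch genes or 21 interferon and MHC class I genes had a site, and 8, 5 and 6 of them had an IgG-free HA peak of some class. With 1.02% of all genes at a site, a count of 0 in lists of this size is near the background. None of the listed neuron (12), oligodendrocyte (12), astrocyte (10), microglia (12), endothelium (10) or ependymal (14) markers had a site. The lists were written with earlier results of these data known, so their counts cannot check the tissue label. H3K27ac by both antibodies lay within 5 kb of 4282 of all 21631 genes in M00002, 19.8%, and of 41.9% of all listed genes. Housekeeping genes had it at 11 of 16, AP-1 and immediate early genes at 14 of 24, and interferon and MHC class I genes at 12 of 21. It lay at 15 of the 21 ependymoma genes, 8 of the 18 radial glia genes, 5 of 10 endothelium, 3 of 10 astrocyte, 3 of 12 microglia, 2 of 12 oligodendrocyte, 2 of 14 ependymal and 0 of 12 neuron markers.

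Most sites stood alone, and 31 of 412 had another within 10 kb. The closest pair, 16581 and 17131 bp from Emid1, was 283 bp apart. It shared 1 Cbp and 1 p300 peak, so that 411 distinct peaks of each coactivator served the 412 sites. Its HA folds were 3.42 and 3.39, it had no HA of M00002, and IgG lay 163 bp from the first member. The pairs inside Bcl9l, a coactivator of Wnt signalling (HA 5.67 and 5.72), and Nfe2l2, the regulator of the antioxidant response (5.71 and 8.23), and the pair 183544 and 182454 bp from Hes1, a Notch effector (7.12 and 6.19), had HA in both lines. The pairs named for Srsx (13942 and 12520 bp away) and Duxf3 did not, and IgG lay 142 and 487 bp from their nearer members.

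The edges of the selection were narrow in places. The smallest overlap of a site was 7 bp with Cbp and 15 bp with p300. The nearest IgG peak to a site was 21 bp away, at the site named for Cwc22. Just outside, a peak with p300 only had a Cbp peak 3 bp away, a peak with Cbp only had a p300 peak 1 bp away, and 29 and 15 such peaks had the missing coactivator within 250 bp. The IgG filter removed a larger share of this class than of the others: 1059 HA peaks had both coactivators before it, and 647 of them (61.1%) overlapped IgG, against 25.8% with Cbp only, 8.62% with p300 only and 3.48% without either. Of the 647, the IgG list of M00002 alone or with the other accounted for 635. The −log10 q was below 2 for Cbp at 138 sites, for p300 at 63 and for HA at 88. The 6 sites with the lowest mean rank were named for Cwc22, Sfi1, Duxf3, Olfr161, 9530057J20Rik and Speer4d. The gene was 359370 bp away for Olfr161, 31199 bp for Speer4d and 12984 bp for Cwc22. These 6 sites had HA folds from 2.44 to 3.4, no HA of M00002 and an IgG peak between 21 and 23815 bp away.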

How the data were processed

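The 11 deposited peak lists, 1 per library, hold for each peak a position on mm10, a score, a fold enrichment, a −log10 p and a −log10 q, as the authors' MACS2 lists give them. The submitters' processing notes name Trim Galore, FastQC, Bowtie2 (2.3.5.1), MACS2 and deepTools. The settings and any control used in peak calling are not given in the sources used here. No list holds read counts, so depth is unknown and no interval rests on it. The deposited lists ranged from 1806 (IgG of M00001) to 30680 peaks (HA of M00002).

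Overlaps of 1 bp or more were computed with pandas 2.3.3 and the exact tests with R 4.3.3. Fisher's exact test was checked on simulated data at the sizes of the sites and of the p300 only class. The exact conditional test over strata was not checked in this way. Where several peaks of a list overlapped a site, the highest fold is given. Gene positions came from RefSeq (GRCm38.p6). The fold was used only to describe and rank peaks within a list. Named sites were the 20 highest and 6 lowest by mean of within-list ranks of HA, Cbp and p300 fold, the 6 highest by S5 fold, the 6 with most H3K27ac, those in no other list, the 6 closest pairs and those at listed genes. The members and lists were chosen with earlier results of these data known. Alternatives covered stricter q, larger overlaps, IgG handling and strata of HA fold, and 3 more were chosen after seeing the data. The result of 1 listed gene with a site is not reported here.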

Additional observations from a re-analysis of the deposited data

Results flagged for a closer look

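Outside chromosomes 1 to 19 and X, which the selection did not cover, 861 HA peaks of M00001 were listed, and 309 of them overlapped both Cbp and p300. Of these, 272 overlapped IgG of at least 1 line and 37 did not. The 37 peaks lie in data that the comparisons above did not use, and neither they nor their genes were analysed here.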

How the results depend on the processing

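Of 146 alternative values of the 14 tests, 129 kept their direction and their side of the threshold. The number of sites was 42 when HA, Cbp and p300 all had a −log10 q of at least 5 and 743 when only IgG of M00001 was removed. It was 358 with overlap of 50% of the shorter peak, 369 with no HA peak within 1 kb of IgG and 337 with summits within 250 bp. With HA at −log10 q of at least 5, the odds ratio against Cbp only was 1.65 for HA of M00002, 1.28 for ac4729 and 0.732 for gene ends, and against p300 only 0.685 for ac4729 and 1.37 for S2. None of these 5 passed the threshold. With 5 strata of HA fold, HA of M00002 against Cbp only was 1.39. With 50% overlap, against p300 only, ac4729 was 0.796 and did not pass while ac647 was 1.3 and passed. With the other lists at −log10 q of at least 5, p65, ac4729 and S2 against p300 only were 0.898, 0.838 and 1.23. Without their IgG-overlapping peaks, S2 was 1.24. Of the alternatives chosen after seeing the data, leaving out HA peaks within 1 kb of IgG gave 0.828 for p65 against p300 only. Keeping only HA peaks with HA of M00002 gave 1.23 for p65, 1.04 for ac4729 and 1.47 for ac647 against p300 only, and 0.896 for gene ends against Cbp only. The cause of these changes was not tested. No paired analysis was possible because each target had 1 library per line, and the groups compared were classes of peaks from the same libraries. Depth could not be assessed from peak lists.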
